A study of Mus musculus with 2 samples.

Results

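Kinesins are motor proteins that use ATP to move along microtubules or to change their length. One part of the superfamily builds the spindle, moves chromosomes and completes cytokinesis, and these genes are transcribed mainly in cells that divide. The other part carries vesicles, organelles and ciliary components in cells at any stage, and the mammary epithelium, with a contractile basal layer around a secretory luminal layer, holds both kinds. The kinesin superfamily was taken as the genes whose symbol is Kif followed by a number and an optional letter, together with Kifc1, Kifc2, Kifc3 and Kifc5b. This gave 41 of the 49492 genes counted. Of these, 12 were treated as mitotic kinesins (Kif2c, Kif4, Kif11, Kif14, Kif15, Kif18a, Kif18b, Kif20a, Kif20b, Kif22, Kif23 and Kifc1) and 29 as the others. The others are not all transport motors, as they include close relatives of mitotic members, such as the depolymerase Kif2a and the Kifc1 paralog Kifc5b. Kinesins with another kind of name, such as the kinetochore motor Cenpe, fell outside this rule.

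Basal cells were sorted from the mammary glands of adult female wild-type mice and grown as primary cells in a 3D matrix for 11 to 14 days. The ctrl group received no treatment, and the M2 group shared its wells with M2-like macrophages. According to the study's methods, these macrophages came from bone marrow, were polarised with Il-4 and Il-13, and sat in a porous insert apart from the matrix, while the culture medium carried EGF. The material is bulk RNA of whole colonies and organoids, each group holds 1 library, and the number of animals or wells behind a library is not given in the sources used here. The ctrl library held 26912610 reads in genes and the M2 library 29413844. Differences between cultures of 1 group were therefore not measured, and in bulk RNA a larger share of cells of a type and more RNA per cell cannot be told apart.

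The defining basal genes Krt5 (56383 reads in ctrl and 83619 in M2) and Krt14 (81991 and 68968) were abundant in both libraries. The luminal keratin Krt8 (29888 and 36348) was abundant too, so luminal transcripts were also present. By the study's flow cytometry, most cells of such cultures were luminal, and the share of basal cells was larger beside M2. A gene was taken as called where the libraries differed by 2-fold or more with an adjusted p under 0.05, which held for 8.16% of all genes tested in the higher and 6.55% in the lower direction. The median log2 difference over the 12 basal markers was -0.0057, with 1 called higher and 1 lower, and over the 12 luminal markers it was -0.44, with 5 called lower. Macrophage markers were scarce. Of 15 such genes, 12 had at most 3 reads in ctrl and 10 in M2, the whole list summed to 279 and 316 reads, and Adgre1, Ptprc, Tyrobp, Fcer1g, Laptm5, C1qb and C1qc were at 0 in both. Most of the summed reads came from Cd68 (170 and 165) and Csf1r (94 and 92), which were not called. Aif1 alone of the 4 testable ones was called higher (3 and 40 reads). Aif1 and Itgam (3 and 9 reads) had the 10 reads needed for testing only with their M2 reads included, which can tilt this count toward higher calls. Fibroblast markers summed to 9379 and 4609 reads, with 2 of 9 called higher and 3 lower.

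The promoters of the mitotic kinesins were examined first, as a sequence feature that the naming rule did not use. A link between promoter elements and the differences below was not tested. A promoter window of 250 bases before and 50 bases after a start was found in RefSeq (GRCm38.p6) for 33 of the 41 kinesins, 11 of them mitotic; Kif20a had no entry. The cell cycle gene homology region (CHR), an element of promoters active in G2 and M phase, was searched as TTTGAA or TTCGAA on both strands. It was present in 10 of 11 mitotic kinesins (90.9%), in 4 of 22 other kinesins (18.2%), in 19.4% of 27025 promoters and in 14.0% of those of genes tested. The CCAAT box, searched as CCAAT on both strands, was held by 7 mitotic (63.6%) and 9 other kinesins (40.9%), against 37.9% of all promoters and 38.2% of those of genes tested. Both elements together were found in 7 mitotic (63.6%) and 4 other kinesins (18.2%), in 7.70% of all promoters and in 5.99% of those of genes tested. The Sp1 box GGGCGG, a common promoter element, was found in 6 mitotic (54.5%) and 15 other kinesins (68.2%), against 35.9% of all promoters and 61.3% of those of genes tested, so the mitotic share lay below that of genes tested. E2F letters, TTCCCGC or TTGGCGC, occurred in 2 and 2 of them, against 6.93% of all promoters and 11.5% of those of genes tested. Division markers that are not kinesins, taken up below, had 11 promoter entries. Of these, 10 held a CHR (90.9%), 10 a CCAAT box (90.9%) and 9 both (81.8%). The Sp1 box was found in 10 (90.9%) and E2F letters in 3 (27.3%). The CHR and the CCAAT box were thus not particular to the mitotic kinesins. Motifs were searched independently and may overlap. These are matches of short letters and not sites of binding.

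The 140 bases before the start of 4 mitotic kinesins are shown, 3 that hold a CHR close to the start and Kif18a, the 1 mitotic kinesin without a match. Capitals mark the CHR (TTCAAA, the reverse complement of TTTGAA) and the CCAAT box (ATTGG on the opposite strand). The regions are chr19:37376242-37376381 (plus strand) for Kif11, chr7:127042421-127042560 (minus strand) for Kif22, chr9:122950941-122951080 (plus strand) for Kif15 and chr2:109280598-109280737 (plus strand) for Kif18a.
Kif11: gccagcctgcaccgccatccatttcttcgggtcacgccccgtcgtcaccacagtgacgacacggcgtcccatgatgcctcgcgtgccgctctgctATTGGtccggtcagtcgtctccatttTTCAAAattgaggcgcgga
Kif22: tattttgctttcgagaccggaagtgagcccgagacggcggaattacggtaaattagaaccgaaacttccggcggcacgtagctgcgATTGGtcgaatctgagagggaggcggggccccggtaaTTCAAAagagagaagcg
Kif15: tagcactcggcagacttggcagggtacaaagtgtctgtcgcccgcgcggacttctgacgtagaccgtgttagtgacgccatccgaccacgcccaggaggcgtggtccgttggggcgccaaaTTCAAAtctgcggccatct
Kif18a: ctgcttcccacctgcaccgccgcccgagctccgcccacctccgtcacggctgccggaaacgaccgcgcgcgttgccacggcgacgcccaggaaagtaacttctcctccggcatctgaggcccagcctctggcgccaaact
In Kif11 the CHR lay 19 to 14 bases before the start, and in Kif15 it occupied the same positions. In Kif22 it lay 17 to 12 bases before the start. Kif15 and Kif22 each held a further match more than 200 bases upstream, outside the stretch shown. The nearest CCAAT box lay 45 to 41 bases before the start in Kif11 and 54 to 50 bases in Kif22, and Kif15 had none. Of the 10 mitotic kinesins with a CHR, 5 had a match before the start and 5 only after it. The RefSeq starts of Kif2c and Kif14 lay 3867 and 1505 bases inside the gene as the count table lists it; without these and Kif17, whose start also lay inside the gene, 8 of 9 mitotic and 4 of 21 other kinesins held the element. Among the other kinesins the element was found in Kif24, Kif26b, Kif27 and Kifc5b.

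The kinesins were then compared between the libraries. Of the 41 genes, 38 had at least 10 reads over both libraries and entered a two-sided exact binomial test on their reads. Calls followed the rule given above. In all, 11 kinesins were called higher in M2 and 1 lower, against 8.16% and 6.55% of the 19233 genes tested. The calls were unevenly placed: 9 of 12 mitotic kinesins were called higher and 0 lower, whereas 2 of 26 other kinesins tested were called higher and 1 lower. The test compares these 2 libraries and not the conditions.

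All 12 mitotic kinesins had a positive log2 difference, as did 49.7% of all genes tested. Their median was 1.16, from 0.62 for Kif18b to 1.62 for Kif4. The other kinesins had a median of 0.12, with 14 positive and 12 negative values between -1.51 and 2.36, and all genes tested had a median of -0.0032 with quartiles of -0.32 and 0.35. The medians of the mitotic and the other kinesins thus differed by 1.04. Both sets overlapped, as 6 other kinesins lay above the lowest mitotic one.

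The number of kinesins called moved with the rule, and so did the background. At an adjusted p under 0.05 and any fold, all 12 mitotic and 12 other kinesins were higher and 8 others lower, against 27.0% and 26.1% of all genes. With 1.5-fold, 19 kinesins were called higher (12.8% of all genes) and 3 lower (11.1%). With 4-fold, only Kif26a was called higher (3.2%) and 0 kinesins were called lower (2.57%). Variation between cultures can be assumed but not measured here. With an assumed coefficient of variation of 0.1 in edgeR's exactTest, 11 kinesins were called higher (7.31%) and 1 lower (5.62%). At 0.2, Kif2c, Kif4, Kif20b, Kif22, Kif23 and Kif26a were called higher (5.01%) and Kif5a lower (3.59%). At 0.4, 0 kinesins were called in either direction, against 0.91% and 0.676% of all genes.

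**Figure D1:**
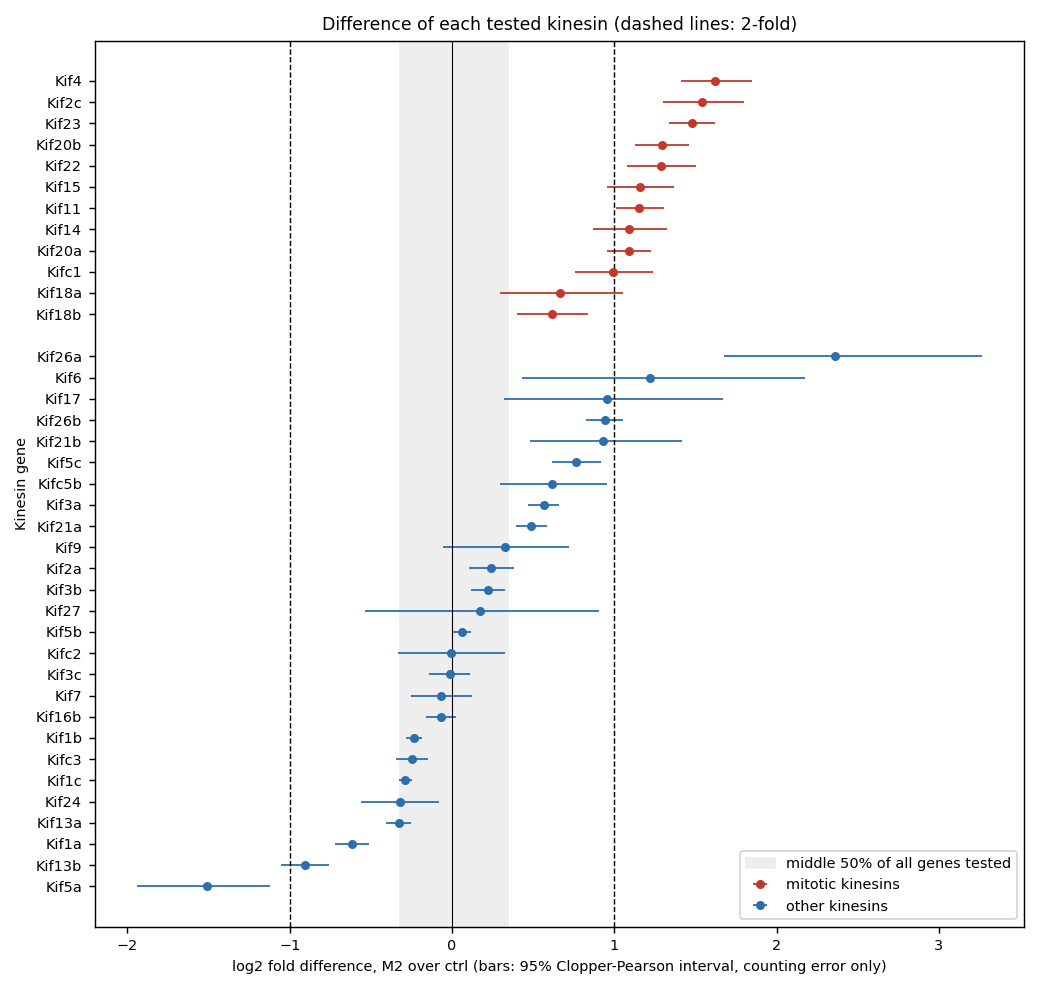
Log2 fold difference (M2 over ctrl, horizontal axis) of the 38 tested kinesins, mitotic in red and others in blue, 1 row per gene; bars are 95% Clopper-Pearson intervals for counting error only, the grey band spans the quartiles of all genes tested and dashed lines mark 2-fold. All 12 mitotic kinesins lie to the right of the grey band, between 0.62 and 1.62, while the other kinesins spread on both sides, from Kif5a at -1.51 to Kif26a at 2.36.

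Motors that build the spindle were considered first. Kif11 (chromosome 19, 37376403 to 37421859), the tetrameric motor that slides antiparallel microtubules apart to make the spindle bipolar, went from 531 reads in ctrl to 1241 in M2. This was a log2 difference of 1.15, with a 95% interval of 1.01 to 1.30 for counting error and an adjusted p of 4.43e-57 by the exact binomial test. Kif15 (chromosome 9, 122951046 to 123018733), which can share this task with Kif11, had 275 and 645 reads and a nearly equal difference of 1.16 (0.95 to 1.37). Kifc1 (chromosome 17, 33875666 to 33890661), a minus end directed motor that focuses spindle poles, had 213 and 446 reads. Its difference of 0.99 (0.76 to 1.24) lay just under 2-fold, so it was not called although its adjusted p was 9.34e-17 in the exact binomial test. Kifc1 is also the mitotic kinesin whose reads are least certain: 45.8% of the stretches of 50 bases in its longest transcript also occur in the paralog Kifc5b, while among the other mitotic kinesins at most 2.68% occur in any other gene. Kifc5b had 127 and 205 reads, a difference of 0.62 (0.30 to 0.95), and with the reads of both genes summed (340 and 651) the difference was 0.87 (0.68 to 1.06).

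Among motors that act on chromosomes, Kif4 and Kif2c showed the largest differences of the mitotic kinesins. Kif4 (chromosome X, 100625737 to 100727214), a chromokinesin of chromosome arms that also works with Prc1 in the central spindle, had 233 and 755 reads, which was 3.08-fold higher in M2 (log2 1.62, interval 1.41 to 1.85). Kif2c (chromosome 4, 117159639 to 117182639), a depolymerase that frees wrongly attached microtubules from kinetochores, had 180 and 552 reads and was 2.91-fold higher (log2 1.54, 1.30 to 1.80). Kif22 (chromosome 7, 127027729 to 127042471), the chromokinesin that pushes chromosome arms away from the poles, had 260 and 666 reads and was 2.44-fold higher (2.11-fold to 2.83-fold). These 3 genes were called higher.

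The kinesin-8 genes stood lower. Kif18a (chromosome 2, 109280738 to 109341747), which dampens the movements of aligned chromosomes, had 94 and 157 reads, a difference of 0.66 (0.29 to 1.06). Kif18b (chromosome 11, 102905529 to 102925124), which limits the length of astral microtubules, had 281 and 453 reads, a difference of 0.62 (0.40 to 0.84). Neither reached 2-fold, and their adjusted p-values were 8.29e-04 and 4.80e-08 in the exact binomial test. The ratio of Kif18a to Kif18b reads changed by 0.05 on the log2 scale (-0.38 to 0.48).

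The motors of the central spindle and cytokinesis were all called higher. Kif23 (chromosome 9, 61915905 to 61946774), the motor subunit of centralspindlin, had 555 and 1623 reads, and differed by 1.48 (1.34 to 1.62), with an adjusted p of 1.79e-108 by the exact binomial test. Kif20b (chromosome 19, 34922358 to 34975731), a kinesin-6 that takes part in abscission, had 417 and 1073 reads and a difference of 1.29 (1.13 to 1.46). Kif20a (chromosome 18, 34624624 to 34633265), which carries the chromosomal passenger complex to the central spindle, had 662 and 1479 reads and a difference of 1.09 (0.96 to 1.22). Kif14 (chromosome 1, 136466343 to 136531511), which acts with citron kinase at the midbody, had 232 and 520 reads and a difference of 1.09 (0.87 to 1.32). Kif20a shares 33.2% of its exon bases with Cdc23 on the opposite strand (1533 and 1789 reads), and Kif4 shares 15.1% with Pdzd11 (369 and 517 reads). As the use of strand in counting is not given in the sources used here, their reads cannot be assigned with certainty. Without Kifc1, Kif4 and Kif20a, an exclusion chosen after seeing the data, the median of the mitotic kinesins was again 1.16.

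The 12 mitotic kinesins together held 3933 reads in ctrl against 9610 in M2, and this sum differed by 1.22 (1.17 to 1.27). The 29 other kinesins summed to 42887 and 42878 reads, a difference of -0.07 (-0.09 to -0.05). The mitotic kinesins thus held 0.0917 reads for each read of the others in ctrl and 0.224 in M2. Per length, the median level of a mitotic kinesin was 5.47 TPM (a length-scaled share of all transcripts, computed here from the gene lengths in the table) in ctrl and 11.7 in M2, and that of the other tested kinesins was 10.1 and 11.4. In both libraries Kif20a had the highest level of the mitotic kinesins (16.5 and 34.1 TPM), followed by Kif11 (10.4 and 22.5 TPM), and Kif18a the lowest (0.905 and 1.40 TPM).

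**Figure D2:**
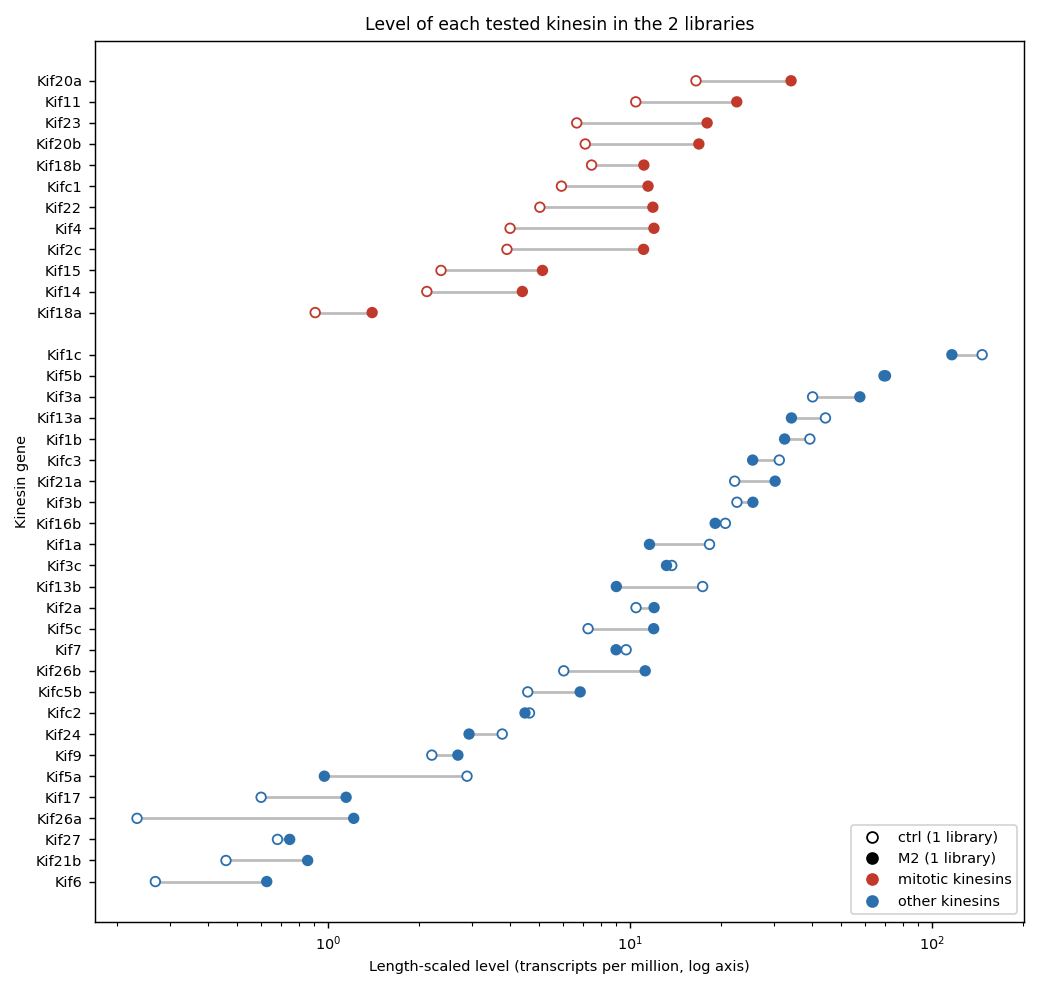
Length-scaled level in TPM (log axis) of each tested kinesin, open circles for ctrl and filled circles for M2, joined by a line; mitotic kinesins in red and others in blue, each ordered by mean level. Every red line runs from a lower ctrl to a higher M2 value, while Kif1c, the most abundant kinesin, runs the other way from 146 to 116.

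Of the transport kinesins, the conventional kinesin heavy chains went different ways. Kif5b, the ubiquitous form, was abundant at 69.3 TPM in ctrl and 70.1 in M2, and its 5409 and 5920 reads gave a difference of 0.06 (0.0076 to 0.11). Kif5c (chromosome 2, 49619298 to 49774778), known as an isoform enriched in neurons, had 547 and 976 reads and a difference of 0.76 (0.61 to 0.92), which was not called. Kif5a (chromosome 10, 127225696 to 127263363), also known from neurons, had 192 and 70 reads, was 2.85-fold lower in M2 (log2 -1.51, -1.94 to -1.12, with an adjusted p of 6.75e-15 by the exact binomial test), and was the 1 kinesin called lower. Relative to Kif5b, the reads of Kif5c differed between the libraries by 0.71 (0.54 to 0.87) and those of Kif5a by -1.59 (-1.98 to -1.19). Per length, Kif5a was at 0.0416 of the level of Kif5b in ctrl and 0.0139 in M2, and Kif5c at 0.105 and 0.171. Of 8 neuronal markers, Snap25 (0 and 2 reads), Elavl3 (0 and 2), Rbfox3 (2 and 3) and Syt1 (2 and 5) were at or near 0, as was Tubb3 (9 and 13). Of the 4 tested, Stmn2 (12 and 1007 reads), Nefm (22 and 69) and Nefl (5 and 28) were called higher, against 8.16% of all genes tested. Nefl and Tubb3 had the 10 reads needed for testing only with their M2 reads included. Such a filter can tilt the count toward higher calls, so it is not a result about the list. The list summed to 52 and 1129 reads, and Stmn2 alone held most of those in M2. Whether neuronal cells had a part in the Kif5 differences was not tested.

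Kinesin-3 motors carry vesicles and organelles. The 6 members outside the mitotic set had negative differences, 5 of them with an interval below 0, and none was called. Of all genes tested, 49.7% had a positive difference. Kif1c, which carries vesicles and integrins, was the most abundant kinesin at 146 TPM in ctrl and 116 in M2, with 11249 and 9663 reads and a difference of -0.29 (-0.33 to -0.25). Kif13a, a motor of recycling endosomes, had 3214 and 2683 reads and a difference of -0.33 (-0.40 to -0.26), and Kif1b, a motor of mitochondria and synaptic vesicle precursors, had 7318 and 6531 reads and a difference of -0.23 (-0.28 to -0.19). Kif16b, a motor of early endosomes, had 1971 and 1973 reads, and its interval of -0.16 to 0.02 included 0. Kif1a had 1804 and 1235 reads, a difference of -0.62 (-0.72 to -0.51). Kif13b had 1028 and 576 reads, a difference of -0.90 (-1.05 to -0.76), which approached 2-fold. Between the close relatives Kif13a and Kif13b, the ratio of levels per length was 2.55 in ctrl and 3.80 in M2.

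Kinesin-2 motors assemble cilia and carry cargo to their tip. Kif3a had 1522 and 2361 reads, a difference of 0.56 (0.47 to 0.66), and its partner Kif3b had 1343 and 1641 reads, a difference of 0.22 (0.11 to 0.33). Kif3c, which can replace Kif3b beside Kif3a, had 993 and 1032 reads and a difference of -0.01 (-0.14 to 0.11). The level of Kif3a per length was 1.78 times that of Kif3b in ctrl and 2.26 times in M2. Kif17, a kinesin-2 that works without these partners, had only 29 and 60 reads and a difference of 0.95 (0.32 to 1.67). None of the 4 was called. Opposite strand overlap touches Kif3c, which shares 38.2% of its exon bases with 1110002L01Rik (316 and 257 reads).

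The kinesin-11 genes encode atypical kinesins that act as signalling scaffolds, and both had more reads in M2. Kif26a (chromosome 12, 112146208 to 112181747) had 17 reads in ctrl but 96 in M2. At 2.36 (1.67 to 3.27) this was the largest difference among the tested kinesins, with an adjusted p of 4.48e-13 by the exact binomial test. Kif26b (chromosome 1, 178529125 to 178939200), far more abundant at 6.02 TPM in ctrl and 11.2 in M2, had 935 and 1883 reads. Its difference of 0.94 (0.83 to 1.06) was not called, and was 1.04 and called once a trend with gene length was removed.

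The remaining kinesins showed smaller or less certain differences. Kif6 (chromosome 17, 49615136 to 49909847), a kinesin-9 known from motile cilia, had 17 and 43 reads and was called higher at 1.22, with a wide interval of 0.43 to 2.17. Its relative Kif9 had 100 and 132 reads and a difference of 0.33 (-0.05 to 0.72). In the kinesin-4 family, Kif21a had 1517 and 2234 reads (0.49, 0.39 to 0.58) and Kif21b 59 and 119 reads (0.93, 0.48 to 1.42). The ciliary kinesins Kif7 (469 and 470 reads) and Kif27 (32 and 38 reads) had intervals that included 0, and so did Kifc2 (154 and 161 reads). Kif2a, a depolymerase related to Kif2c, had 778 and 966 reads and a difference of 0.24 (0.11 to 0.38), and the level of Kif2c per length was 0.374 of that of Kif2a in ctrl and 0.923 in M2. Kif24, a centriolar relative that restrains cilia, had 319 and 268 reads (-0.32, -0.56 to -0.08), and the minus end motor Kifc3 had 1744 and 1540 reads (-0.25, -0.35 to -0.15). Untested for want of reads were Kif2b and Kif12, with 0 reads in both libraries, and Kif19a, with 0 and 2. At 0 reads a level of up to 3 reads is possible, or 0.109 CPM for ctrl and 0.104 for M2, and transcripts below that were not detectable at this depth.

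**Figure D3:**
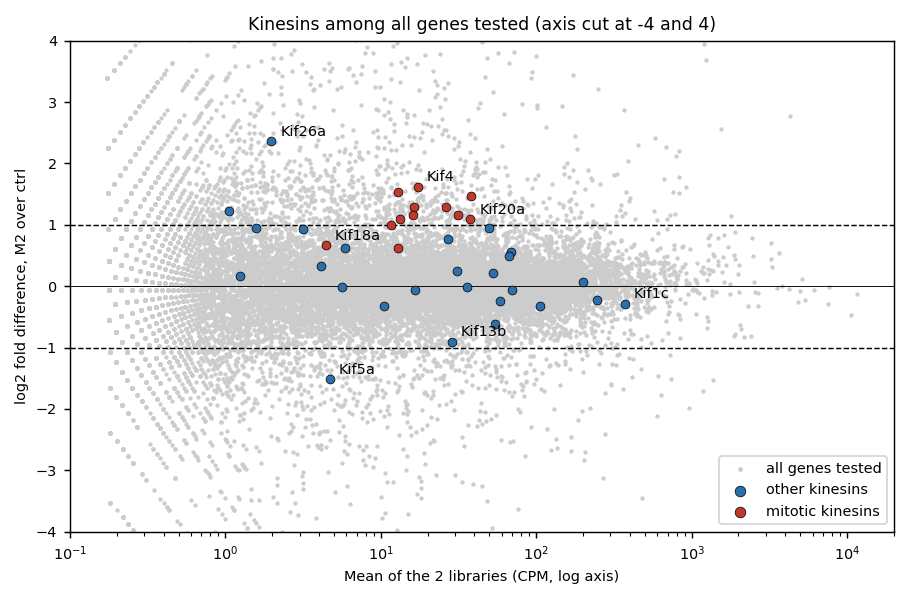
Log2 fold difference (M2 over ctrl) against the mean of both libraries in CPM (reads scaled to library size, log axis) for all genes tested (grey), mitotic kinesins (red) and other kinesins (blue), with 2-fold dashed. The red points form a group above the grey centre, mostly between 1 and 1.62, and the blue points scatter around 0.

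To see where the kinesins stood among genes they work with, lists of partners were examined. Of 12 division markers that are not kinesins, such as Mki67, Top2a and Anln, 11 were called higher and 0 lower, with a median of 1.35, against 8.16% and 6.55% of all genes tested. Mki67 had 2656 and 6713 reads, a difference of 1.27. The reads of mitotic kinesins per read of these markers were 0.433 for ctrl and 0.413 for M2, which is -0.07 (-0.13 to -0.0028) on the log2 scale. The kinetochore kinesin Cenpe, outside the name rule, had 573 and 1812 reads (1.59), and Stard9, another kinesin without a Kif name, had 300 and 225 (-0.48). Among 20 partners and regulators of mitotic kinesins, 10 were called higher and 0 lower, against the same 8.16% and 6.55%, with a median of 0.996. Of the 10 called, the 6 with the most reads were Incenp (1975 and 4164 reads, a difference of 1.01), Prc1 (1479 and 3424; 1.14), Tpx2 (784 and 2413; 1.55), Nusap1 (587 and 1464; 1.25), Cdca8 (481 and 1090; 1.11) and Hmmr (362 and 1168; 1.62). Incenp and Cdca8 are subunits of the chromosomal passenger complex that Kif20a carries. Prc1 bundles the microtubules on which Kif4 works, and Tpx2 binds Kif11. The 10 partners not called included Numa1 (16053 and 14828 reads, a difference of -0.18), Mapre1 (4281 and 5413; 0.27), Hjurp (3939 and 4805; 0.22) and Ckap5 (2330 and 3525; 0.53), which had more reads than most of these. Also not called were Racgap1 (738 and 1053; 0.44), the partner of Kif23 in centralspindlin, and Aurkb (157 and 244; 0.56), the kinase of the chromosomal passenger complex. Cit, the citron kinase gene (153 and 319; 0.99), and Tacc3 (640 and 1289; 0.94) were not called either but lay just under 2-fold. Incenp fell under 2-fold with total reads as the scaling (0.95).

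The light chains and adaptors that tie transport kinesins to cargo gave 0 calls in 18 genes tested, with a median of -0.10. Over all genes tested 14.7% were called in either direction, so few calls would be seen in a list of this length at that share. The light chains Klc1, Klc2, Klc3 and Klc4 had differences of 0.21, -0.11, -0.68 and -0.10, and Kifap3, which completes the Kif3a and Kif3b motor, had 0.14. Fez2, at 0.95, was highest in the list (228 and 464 reads). Cytoplasmic dynein and dynactin, which move the opposite way on microtubules, also gave 0 calls in 23 genes tested, with a median of 0.08 and values from -0.75 to 0.48. The 24 intraflagellar transport genes, which encode cargo of kinesin-2, gave 0 calls, with a median of -0.01 and values from -0.93 to 0.19.

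**Figure D4:**
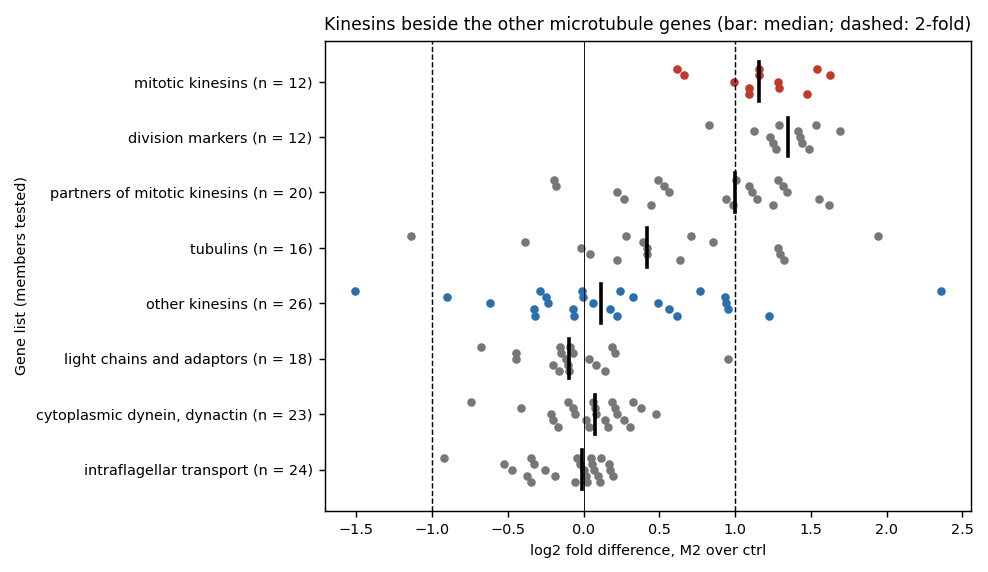
Log2 fold difference (M2 over ctrl, horizontal axis) of each tested member of 8 gene lists, 1 point per gene, with the median as a black bar and 2-fold dashed. Mitotic kinesins (median 1.16), division markers (1.35) and partners of mitotic kinesins (0.996) lie to the right, tubulins (0.42) in between, and the other kinesins (0.12), adaptors, dynein and intraflagellar transport genes around 0.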

How the data were processed

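The authors deposited raw read counts per gene for 1 ctrl and 1 M2 library, with gene coordinates and lengths. The submitters' processing notes name GRCm38 and mm10 as genome builds, and per the labels libraries were made with a SMARTER kit. The series text speaks of a microarray, but the values are whole read counts. The aligner, counter, annotation and use of strand are not given in the sources used here. The quasi-likelihood test of edgeR needs replicates and could not be fitted. Genes with at least 10 reads over both libraries were scaled by TMM in edgeR 4.0.16 (R 4.3.3). The log2 difference is that of reads plus a pseudocount of 1 per effective library size. Each gene had a two-sided exact binomial test (scipy 1.17.1), adjusted by Benjamini-Hochberg over all genes tested, and a call needed an adjusted p under 0.05 and 2-fold. Intervals are 95% Clopper-Pearson; those of ratios between genes or sets use the normal approximation on the log scale. All cover counting error only. The functions were tested on simulated counts.

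The members and lists were chosen with earlier results of these data known. Named were every mitotic kinesin, called other kinesins, the 8 most abundant uncalled ones and called members of the other lists (6 where more); the remaining kinesins are given so that every member is covered, and other names were picked with their values in view. The table holds 26 gene names turned into dates, which are not named. Protein sequences were not analysed here.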

Additional observations from a re-analysis of the deposited data

How the results depend on the processing

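Of 38 tested kinesins, 31 kept their direction and call under 4 other scalings, 2 other pseudocounts, 2 other filters where they passed them, and removal of a trend with length or, chosen after seeing the data, GC content. The mitotic median was at least 1.09, and its distance to the other kinesins ran from 0.98 to 1.13, or 1.29 as a ratio of summed reads. Kif21b and Kif26b became called without the length trend (1.01 and 1.04), and Kifc1 and Kif17 without the GC trend (1.02 and 1.01). Values near 0 changed sign for Kif5b (-0.0088, total reads without mitochondrial genes), Kif3c (positive at 0.0339 with the length trend removed) and Kifc2 (positive at 0.0495 with the GC trend removed).

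The counts of 11 higher and 1 lower depend on the threshold, the filter, trend removal and the variation assumed between cultures, which 1 library per group cannot give. With at least 1 CPM in both libraries they were 9 and 1, as Kif26a and Kif6 did not pass and 0 other kinesins were then called higher. Of the 14590 genes that passed this filter, 797 were called higher and 583 lower. With the length or the GC trend removed the kinesin counts were 13 and 1. Of all 19233 genes, 1583 and 1264 were then called without the length trend, and 1582 and 1257 without the GC trend. The kinesin counts were 19 and 3 at 1.5-fold, and 1 and 0 at 4-fold. In edgeR's exactTest, assuming a coefficient of variation of 0.1, they stayed at 11 and 1. At 0.2 they were 6 and 1, with 5 mitotic kinesins left (Kif2c, Kif4, Kif20b, Kif22 and Kif23) and 5.01% of all genes called higher. At 0.4 they were 0 and 0. Depth limits Kif6, Kif17, Kif26a and Kif27, with under 100 reads in each library. No paired analysis was possible because ctrl and M2 have 1 library each.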

Other observations

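Tubulins, the track on which kinesins run, were examined as a further list. Of 16 genes, 4 were called higher and 1 lower, against 8.16% and 6.55% of all genes tested, with a median of 0.42. Tubb6 had 641 and 2584 reads, a log2 difference of 1.94, Tuba1a had 5498 and 14412 (1.32), and Tubb2b had 1129 and 2911 (1.30). Tubb4a was called on 8 and 22 reads (1.28; exact binomial test), and fell under 2-fold with a pseudocount of 5 (0.99). Tuba8, with 338 and 160 reads, was called lower (-1.14). The abundant Tubb5 (8819 and 14344 reads) and Tuba1b (5293 and 9086) had differences of 0.63 and 0.71 and were not called. Close relatives among the tubulins could share reads.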
